A study of Mus musculus with 20 samples.

Results

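Gene sets named for DNA repair or for telomeres were followed through 7 comparisons of mouse myeloid cells and melanoma lines. A set was a member if its name held REPAIR, FANCONI, HOMOLOGOUS, HOMOLOGY_DIRECTED, EXCISION, DOUBLE_STRAND, TRANSLESION or TELOMERE. This gave 34 sets of the 3883 listed in each myeloid comparison and of the 3871 listed for the cell lines. No member name ended in _DN, the mark of a list of lowered genes. The members held 15 to 271 genes each, with a median of 40.5. Reactome supplied 27 of them and KEGG 4, and the others came from the Pathway Interaction Database (PID) and from lists by Kauffmann and by Matzuk. By the pathway in the name they fell into 9 groups: base excision (4 sets), nucleotide excision (5), mismatch (2), homologous recombination and double-strand breaks (7), end joining (1), Fanconi (2), translesion (4), telomere (4) and general DNA repair (5).

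RNA was sequenced from 14 libraries of cells labelled as myeloid, which had been taken from the bone marrow or spleen of adult C57BL/6 mice and depleted of cells carrying CD3e, a subunit of the T cell receptor complex. The marrow libraries were 3 from healthy mice, 3 from mice bearing B16F10 and 2 from mice bearing YUMM3.3; the spleen libraries were 2 from each of the same conditions. B16F10 and YUMM3.3 are transplantable mouse melanoma lines, and each was also sequenced as 3 libraries of plated cultures. The labels give no tumour site, tumour age or sex of the mice, and do not tie a library to an animal, so nothing was paired. Depletion of CD3e leaves any cell type that lacks it, and gene-level values were not analysed here, so the myeloid label could not be checked against marker genes. In such bulk samples fewer cells of a type and less RNA per cell cannot be told apart.

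DNA repair pathways divide the work by lesion. Base excision repair removes small damaged bases, nucleotide excision repair cuts out bulky adducts, and mismatch repair corrects copying errors. Breaks through both strands are joined directly by end joining or copied from a sister chromatid by homologous recombination. The Fanconi pathway clears crosslinks between strands, translesion polymerases copy past damage, and telomere maintenance protects and extends chromosome ends. Many of these proteins (DNA polymerases, the sliding clamp PCNA, replication factor C, ligases) also replicate DNA, and several sets that describe break signalling or telomere packaging hold core histone genes.

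The measurement throughout is the normalised enrichment score (NES) from the authors' deposited tables, which says how far the genes of a set crowd toward an end of the list ranked between a pair of groups. It is signed here so that a positive value means higher in the first-named group, and a set is called at a deposited false discovery rate (FDR) q below 0.05. There is a single NES per set and comparison, so no spread between libraries can be given. The smallest nonzero nominal p listed was 0.00103, while permuting library labels in groups of these sizes bottoms out at 0.167 (2 and 2 libraries), 0.1 (3 and 2) or 0.05 (3 and 3). The listed p and q thus carry no measure of how animals or cultures vary. The 3 comparisons within a tissue share libraries, and the sets share genes, with Reactome sets nested inside each other, so neither comparisons nor sets are independent.

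The clearest feature was the spleen of YUMM3.3-bearing mice, where each of the 9 pathway groups had sets higher than in healthy spleen. Of the 34 sets, 32 were called higher and 0 lower, against 15.6% of all listed sets called higher and 5.31% lower. All 34 NES lay above 0, up to 2.67, and their median was 2.07 where the median over all listed sets was -0.69. The top member in the authors' deposited table was Kauffmann's list of DNA repair genes (207 genes, NES 2.67, q listed as 0). It stood at place 91 among all listed sets higher in that comparison. Of the 2 sets that missed the threshold there, Matzuk's set of meiotic and repair genes had an NES of 1.53 and q 0.0609 by the authors' deposited table.

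Spleen of B16F10-bearing mice went the same way with smaller scores. There 13 of the 34 sets were called higher and 0 lower than in healthy spleen, where 16.6% of all sets were called higher and 1.6% lower. The median NES was 1.55 over the members and 1.09 over all sets, and 33 of 34 members lay above 0. Among the members, telomere maintenance stood highest (NES 2.05, q 0.000178) and the set of SUMO-modified damage response proteins lowest (NES -0.86, q 0.813) in the authors' deposited table. All 13 sets called with B16F10 were also called with YUMM3.3, and the NES was larger with YUMM3.3 for 34 of 34 sets, although both comparisons use the same healthy libraries. In the direct comparison of the tumours, 28 of 34 sets had an NES below 0 (median -1.01 against 1.04 over all sets), yet only 1 was called lower with B16F10 and 0 higher, where 1.47% and 9.63% of all sets were called. That set was SUMOylation of DNA damage response and repair proteins, with an NES of -1.99 and q 0.00887 in the authors' deposited table.

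**Figure D1:**
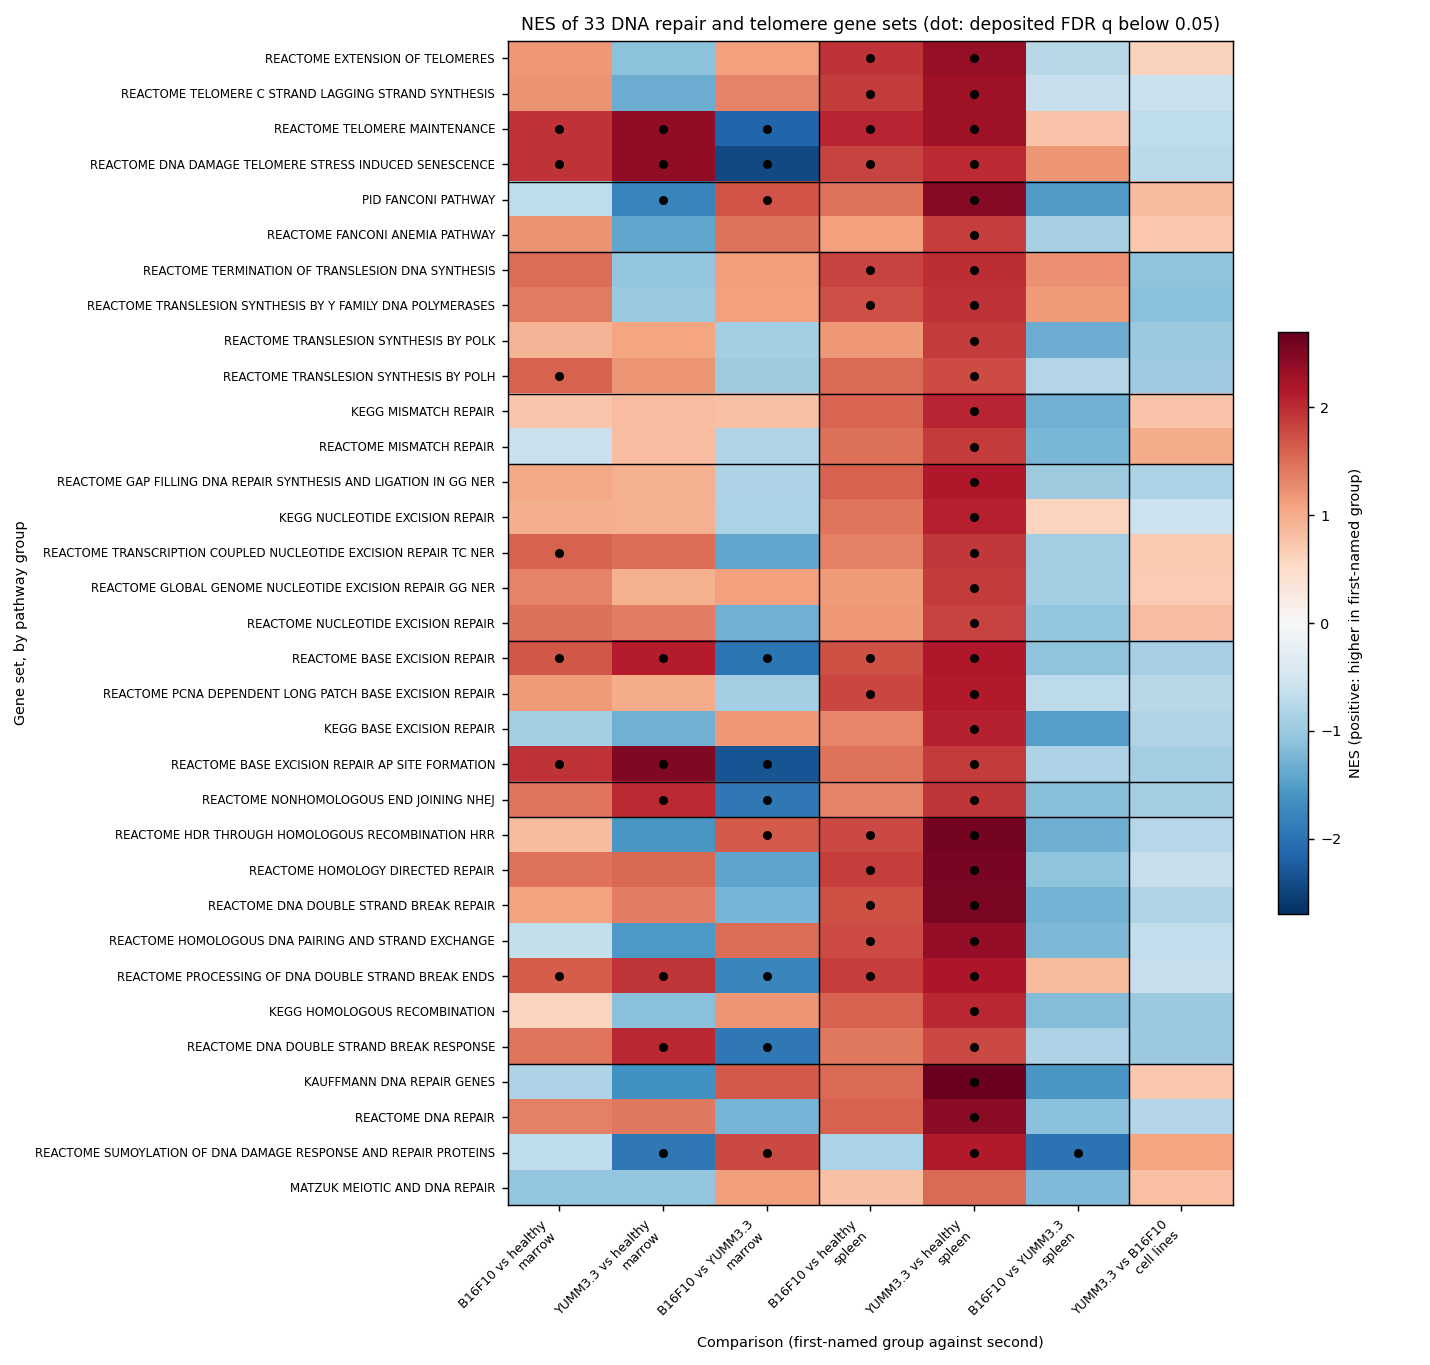
Heat map of the NES of 33 of the 34 sets (rows, grouped by pathway) in the 7 comparisons (columns); red is higher in the first-named group, blue is lower, and a dot marks a deposited FDR q below 0.05. The column of YUMM3.3-bearing against healthy spleen is red in all 33 rows with 32 dots, while the marrow columns of YUMM3.3 mix both colours and the cell line column has 0 dots.

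In bone marrow the sets did not move as a block. With B16F10, 7 of 34 were called higher than healthy and 0 lower, a share close to the 20.1% of all sets called higher (5% were called lower), and the median NES was 1.21 against 0.96. With YUMM3.3, 7 were called higher and 2 lower, where 9.68% and 6.52% of all sets were, and the median was 0.96 against 0.74. Between the tumours, 3 were called higher with B16F10 and 7 lower, where 8.09% and 8.4% of all sets were, and the median was -0.85 against 0.72. The 7 sets called lower in that direct comparison are the same 7 that were called higher with YUMM3.3 than in healthy marrow, a pair of comparisons that share the YUMM3.3 libraries. Those 7 are AP site formation, Reactome base excision repair, telomere maintenance, telomere stress-induced senescence, the double-strand break response, processing of break ends and end joining.

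Scores have a gap around 0, because a set peaks at either end of the ranked list, so a median can fall between clusters of positive and negative scores. With YUMM3.3 against healthy marrow 21 sets lay above 0 and 13 below, with the lowest at -1.92 and the highest at 2.51. The highest there, and also in B16F10-bearing against healthy marrow (NES 1.96, q 0.00267), was AP site formation in base excision repair, at place 49 of the higher sets with YUMM3.3 (NES 2.51, q listed as 0) by the authors' deposited table. The lowest with YUMM3.3 was the SUMOylation set (NES -1.92, q 0.0101), and with B16F10 it was Matzuk's set (NES -1.05, q 0.539), again by the authors' deposited tables.

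**Figure D2:**
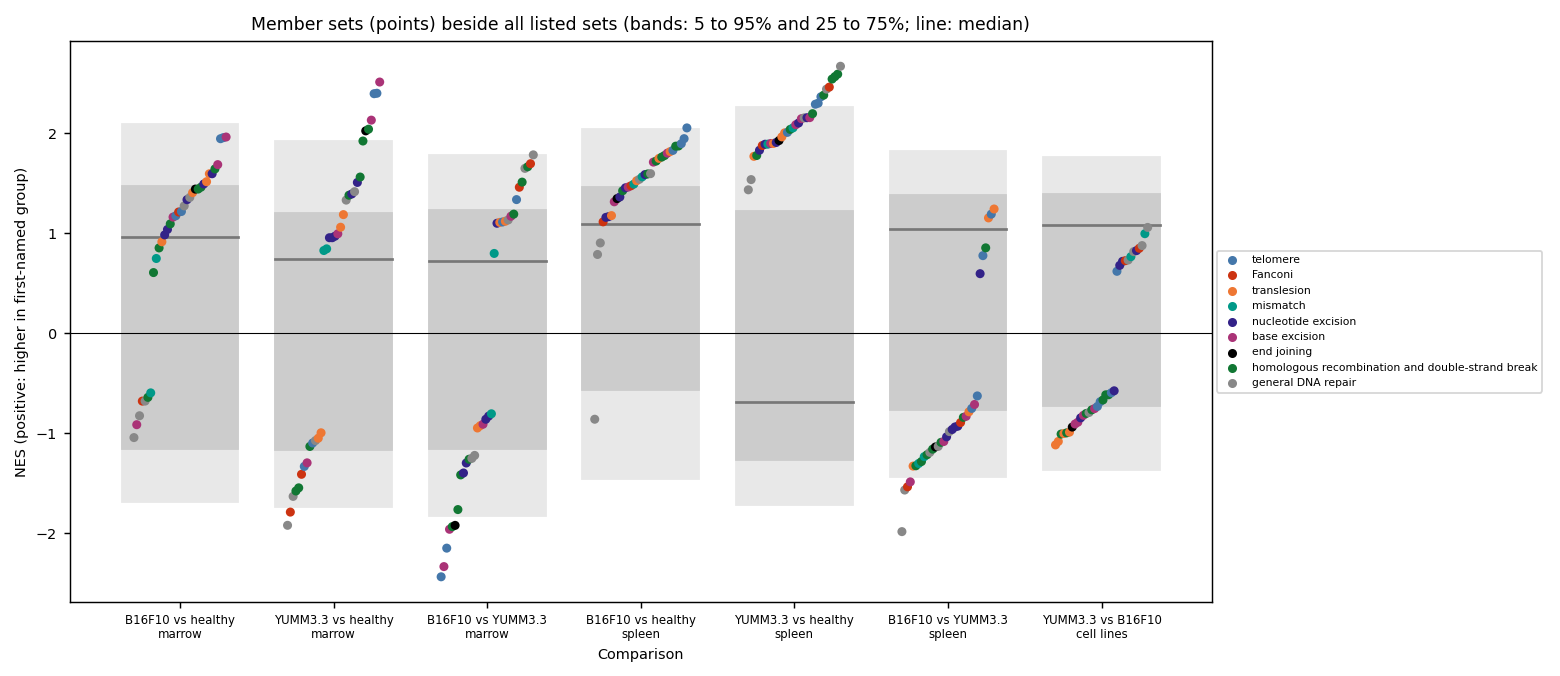
NES of the 34 member sets (points, coloured by pathway group, sorted from left to right within a comparison) over bands that hold the middle 90% and the middle 50% of all listed sets, with a line at their median. In YUMM3.3-bearing against healthy spleen all 34 points lie above 0 while the median of all sets is -0.69; in the marrow of YUMM3.3-bearing mice the points split into 21 above and 13 below 0.

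Among the general sets, the broad lists rose in the spleen of YUMM3.3-bearing mice and differed from each other in marrow. Reactome DNA repair, the broadest Reactome set with 271 genes, had an NES of 1.36, 1.41 and -1.25 in marrow (B16F10 against healthy, YUMM3.3 against healthy, B16F10 against YUMM3.3) in the authors' deposited tables, none of them called. Its spleen values in the same order were 1.59 (q 0.0585), 2.44 (q listed as 0) and -1.13, and its value in the lines was -0.79, by the authors' deposited tables. Kauffmann's list of 207 repair genes had the opposite sign in all 3 marrow comparisons, with -0.83, -1.63 (q 0.0589) and 1.65 (q 0.0511), none called, in the authors' deposited tables. The same list gave 1.54, 2.67 and -1.57 in spleen and 0.73 in the lines, by the authors' deposited tables.

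SUMOylation attaches the small protein SUMO to repair factors and alters their partners. Its set of 71 genes was called both ways against healthy cells, lower in the marrow of YUMM3.3-bearing mice (-1.92) and higher in their spleen (2.15, q 4.38e-05), in the authors' deposited tables. With B16F10 against healthy the SUMOylation set was not called in either tissue (-0.68 in marrow and -0.86 in spleen), and against YUMM3.3 it was higher in marrow (1.78, q 0.0233) and lower in spleen (-1.99), by the authors' deposited tables. In the lines the SUMOylation set had the highest score of the members, 1.06 with q 0.503 in the authors' deposited table. Matzuk's set was called in none of the 7 comparisons. It ran -1.05, -1.08 and 1.13 in marrow, 0.79, 1.53 and -1.19 in spleen and 0.81 in the lines, by the authors' deposited tables.

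Base excision repair begins when a glycosylase removes a damaged base and leaves an abasic (AP) site, which is then cut, refilled and ligated. All 4 of its sets rose in the spleen of YUMM3.3-bearing mice, with NES from 1.90 to 2.15. In marrow the sets differed in which were called, and the differences between them were not tested. The sets compared next were picked out after their values had been seen. AP site formation was called higher with both tumours and lower in B16F10 against YUMM3.3 (NES -2.34, q listed as 0), while the PCNA-dependent long patch set, which covers resynthesis of a longer stretch, had the same signs and was called in none of the marrow comparisons (1.16, 0.99 and -0.91 in the same order), by the authors' deposited tables.

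The Reactome and KEGG versions of base excision repair differed in sign in marrow, a difference that was not tested. Reactome base excision repair (68 genes) had 1.68 (q 0.0265), 2.13 (q 0.000206) and -1.96 (q 0.00334) in marrow in the authors' deposited tables. KEGG base excision repair (33 genes) had -0.92, -1.30 and 1.17 there, none called, by the authors' deposited tables. In spleen they shared a direction, with 1.71 (q 0.0233), 2.15 (q 4.45e-05) and -1.08 for Reactome and 1.31, 2.08 (q 0.000161) and -1.49 for KEGG in the authors' deposited tables. The line values were -0.89 and -0.82. The signs of the Reactome and KEGG versions therefore matched in 4 of 7 comparisons. The Reactome and KEGG signs matched in 5 for nucleotide excision, 5 for mismatch and 7 for homologous recombination. The PID and Reactome Fanconi sets matched in 6.

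Nucleotide excision repair has a branch that scans the whole genome and a branch that follows stalled RNA polymerase, and both then cut out and refill the damaged stretch. Its 5 sets were all called higher in the spleen of YUMM3.3-bearing mice (1.83 to 2.15) and none was called in the spleen of B16F10-bearing mice (1.16 to 1.58). Against healthy marrow all 5 scores lay above 0 with both tumours, and only the transcription-coupled branch with B16F10 was called (NES 1.59, q 0.0448) in the authors' deposited table.

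The Reactome set of 103 genes had 1.49 (q 0.0756), 1.39 and -1.30 in marrow, 1.16, 1.83 (q 0.00517) and -1.04 in spleen and 0.82 in the lines, by the authors' deposited tables. For the KEGG set of 41 genes the authors' deposited tables gave 0.98, 0.97 and -0.86 in marrow, 1.45, 2.10 (q 0.000111) and 0.59 in spleen and -0.58 in the lines. The Reactome and KEGG versions shared their sign against healthy cells in both tissues and differed in sign between the tumours in spleen and in the lines, where neither was called.

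Mismatch repair corrects mispaired bases behind the replication fork, and its sets were called in a single comparison. KEGG mismatch repair (22 genes) reached 2.05 (q 0.000279) and Reactome mismatch repair (15 genes) 1.89 (q 0.00266) in spleen of YUMM3.3-bearing against healthy mice in the authors' deposited table. With B16F10 in spleen they stood at 1.56 and 1.49, and between the tumours at -1.30 and -1.24, none called, by the authors' deposited tables. The marrow scores of the KEGG set were 0.75, 0.83 and 0.80 and those of the Reactome set -0.60, 0.84 and -0.81, and the lines gave 0.76 and 0.99, by the authors' deposited tables. No marrow score of mismatch repair reached 1 in size.

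Double-strand break repair held the largest group, and its sets took opposite signs in marrow. Homologous recombination resects a broken end, pairs it with the sister strand and copies that strand, whereas the break response set describes the early signalling around the break. All 7 sets were called higher in the spleen of YUMM3.3-bearing mice (1.78 to 2.59, median 2.38) and 5 of 7 in the spleen of B16F10-bearing mice (all 7 from 1.42 to 1.87). In YUMM3.3-bearing against healthy marrow, the break response (2.04, q 0.000876) and end processing (1.92, q 0.00346) were called higher in the authors' deposited table. The 3 sets for recombination itself had negative scores there, -1.58 (q 0.0782) for repair through homologous recombination, -1.55 (q 0.0907) for pairing and strand exchange and -1.13 (q 0.412) for KEGG homologous recombination, none called, by the authors' deposited table. The wider Reactome set of homology directed repair (107 genes) had a positive score of similar size, 1.56 (q 0.0728), also not called, in the authors' deposited table.

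Reactome double-strand break repair (132 genes), which contains both kinds, had 1.09, 1.38 and -1.26 in marrow, 1.72 (q 0.0210), 2.54 (q listed as 0) and -1.28 in spleen and -0.80 in the lines, by the authors' deposited tables. KEGG homologous recombination (23 genes) had 0.60, -1.13 and 1.19 in marrow, 1.59 (q 0.0599), 2.04 (q 0.000359) and -1.16 in spleen and -0.998 in the lines, by the authors' deposited tables. Between the tumours in marrow, repair through homologous recombination was higher with B16F10 (1.66, q 0.0481) and end processing lower (-1.77, q 0.0199) in the authors' deposited table. These sets were picked out for this paragraph after their values had been seen.

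End joining ligates broken ends without a template and was represented by 1 Reactome set of 48 genes. It was called higher with YUMM3.3 than in healthy marrow (NES 2.02, q 0.00101) and spleen (1.92, q 0.00171), and lower with B16F10 than with YUMM3.3 in marrow (-1.92, q 0.00511), in the authors' deposited tables. With B16F10 against healthy it stood at 1.44 (q 0.0963) in marrow and 1.34 in spleen, between the tumours in spleen at -1.14 and in the lines at -0.94, none called, by the authors' deposited tables. Its signs in the marrow comparisons were those of the break response.

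The Fanconi sets describe the core complex and its targets that unhook crosslinked strands. Both were called higher in the spleen of YUMM3.3-bearing mice. The PID set (39 genes), taken up here after its values were seen, was also called in marrow, by the authors' deposited tables. There it was lower with YUMM3.3 than in healthy cells (NES -1.79, q 0.0255). It was also higher with B16F10 than with YUMM3.3 (1.69, q 0.0417), a comparison that shares the YUMM3.3 libraries. Of all listed sets, 6.52% were called lower in the former comparison and 8.09% higher in the latter. The Reactome Fanconi set (28 genes) had 1.21, -1.41 and 1.46 in marrow, 1.11, 1.87 (q 0.00307) and -0.90 in spleen and 0.72 in the lines, by the authors' deposited tables. With YUMM3.3 the Fanconi sets thus lay below 0 in marrow and above 0 in spleen.

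Translesion synthesis uses low-fidelity polymerases, among them the Y family members encoded by Polh and Polk, to copy past lesions. All 4 sets were called higher in the spleen of YUMM3.3-bearing mice (1.77 to 2.00) and 2 of 4 in that of B16F10-bearing mice. The Y family set (35 genes) had 1.40, -0.998 and 1.11 in marrow, 1.75 (q 0.0163), 1.96 (q 0.00110) and 1.15 in spleen and -1.12 in the lines, the last being the lowest member score of that comparison, by the authors' deposited tables. The set for termination of translesion synthesis, where the normal polymerase takes over again, gave the highest member score between the tumours in spleen (1.24, q 0.338) in the authors' deposited table. With B16F10 in marrow, only synthesis by the Polh product was called (NES 1.59, q 0.0449) in the authors' deposited table.

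Telomere sets also took both signs in marrow. Telomere maintenance (58 genes) was called in 5 of the 6 myeloid comparisons, with 1.94 (q 0.00311), 2.40 (q listed as 0) and -2.15 (q 0.000217) in marrow in the authors' deposited tables. Its spleen values were 2.05 (q 0.000178), 2.29 (q 4.81e-06) and 0.77, the last not called, and its value in the lines was -0.69, by the authors' deposited tables. Senescence induced by DNA damage and telomere stress followed the same calls and had the lowest member score of B16F10 against YUMM3.3 in marrow (NES -2.44, q listed as 0, at place 44 of that direction) in the authors' deposited table.

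The telomere sets that describe DNA synthesis were called in none of the marrow comparisons. They were picked out for this paragraph after their values had been seen. Extension of telomeres, the work of telomerase and the lagging-strand machinery, had an NES of 1.17, -1.10 and 1.11 there, none called, and C-strand synthesis had -1.33 with YUMM3.3 against healthy and 1.33 between the tumours, none called, by the authors' deposited tables. In spleen both were called higher with B16F10 (1.94 and 1.89) and with YUMM3.3 (2.36 and 2.30) in the authors' deposited tables. All 4 telomere sets were thus called higher in spleen with either tumour, with group medians of 1.92 for B16F10 and 2.29 for YUMM3.3.

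**Figure D3:**
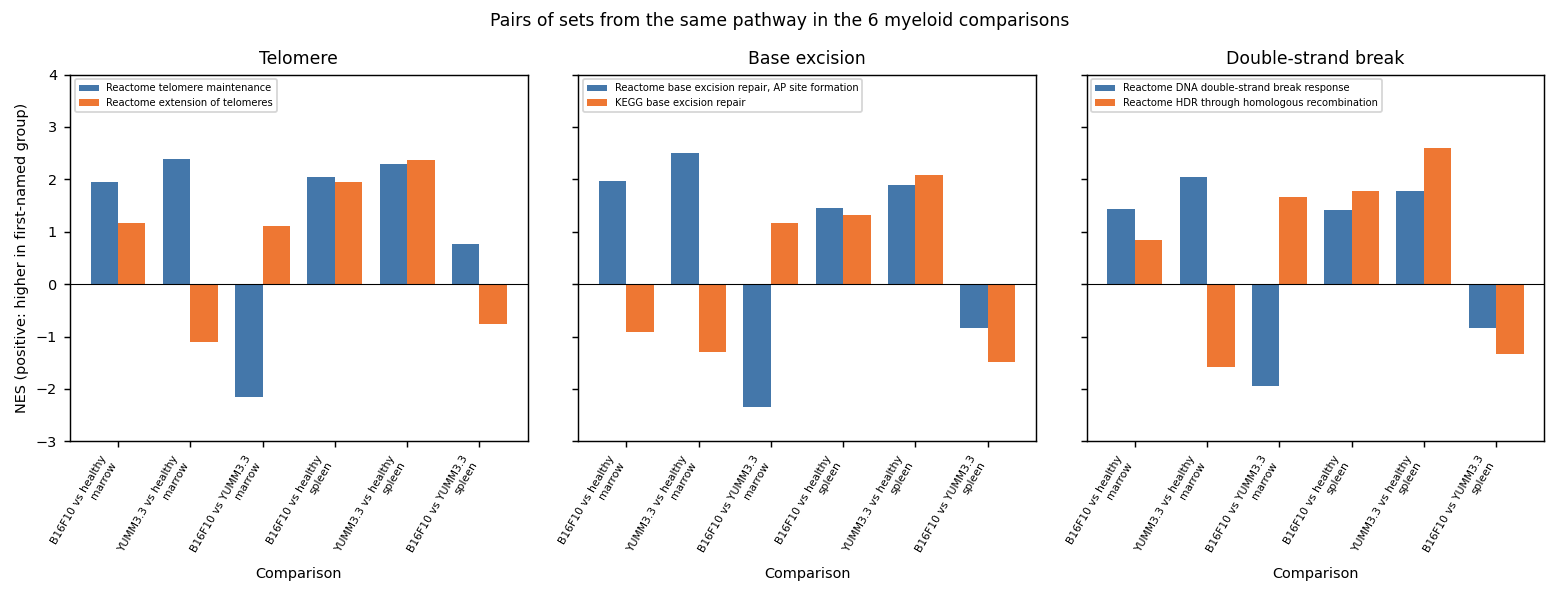
NES (bars from 0) of a pair of sets from each of 3 pathways in the 6 myeloid comparisons; the pairs were chosen after their values were seen. Blue and orange bars point the same way in both spleen comparisons with healthy mice and opposite ways in YUMM3.3-bearing against healthy marrow, where telomere maintenance stood at 2.40 and extension of telomeres at -1.10.

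Set by set over the 6 myeloid comparisons, 2 members were called in none and 12 in a single comparison. Each of those single calls was the higher call in YUMM3.3-bearing against healthy spleen, where 32 of 34 were called. The same tally was not made over all listed sets, so it gives no trait of the members. The most often called were Reactome base excision repair, processing of break ends, telomere maintenance and telomere stress-induced senescence, each called higher in all 4 comparisons with healthy cells and lower in B16F10 against YUMM3.3 marrow. The scores were larger in spleen than in marrow for 23 of 34 sets with B16F10 and for 29 of 34 with YUMM3.3. AP site formation was the set with the widest difference the other way (by -0.50 with B16F10 and -0.61 with YUMM3.3). The largest gain in spleen was 2.40 with B16F10, for homologous pairing and strand exchange, and 4.30 with YUMM3.3, for Kauffmann's repair genes. No comparison of the tissues themselves was analysed here, so these differences were not tested.

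In culture the lines showed no called repair set. Against 11.8% of all sets called higher in YUMM3.3 and 1.47% called lower, 0 of 34 members were called either way. At a nominal p below 0.05 the members also had 0 in either direction, where 26.5% of all sets were higher and 5.06% lower. The scores ran from -1.12 to 1.06, with 12 above 0 and 22 below, and the median was -0.68 against 1.08 over all sets. The other counts of 0 in the myeloid comparisons (lower with either tumour in spleen, lower with B16F10 than healthy in marrow, higher with B16F10 than YUMM3.3 in spleen) were also 0 at a nominal p below 0.05 in the authors' gene set enrichment reports. At that nominal p, 6.16% (B16F10) and 17.9% (YUMM3.3) of all listed sets were lower than healthy in spleen. In marrow 13.4% were lower with B16F10 than healthy, and 22.9% were higher with B16F10 than YUMM3.3 in spleen.

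Each deposited row also gives the rank in the gene list at which the set's score peaks and the share of its genes reached by then. In YUMM3.3-bearing against healthy marrow the 21 sets with positive scores peaked early, at a median rank of 1076 and no later than 1398, having reached a median of 22% of their genes, in the authors' deposited table. The 13 with negative scores peaked at a median rank of 2502 from the other end, with 29% of their genes. Over all listed sets of either sign in that comparison the medians were rank 2615 and 32%. In YUMM3.3-bearing against healthy spleen the 34 sets peaked at a median rank of 2286 but had by then reached 58.5% of their genes. The medians over all listed sets there were rank 2130 and 28%.

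The same rank recurred across sets. Rank 1076 was the peak of 6 sets in YUMM3.3-bearing against healthy marrow in the authors' deposited table: Reactome base excision repair, its AP site formation set, double-strand break repair, homology directed repair, end processing and telomere maintenance. Those same 6 peaked together at rank 1062 in B16F10-bearing against YUMM3.3-bearing marrow, and 7 sets peaked at rank 4541 in B16F10-bearing against healthy marrow, by the authors' deposited tables. A set peaks at one of its own genes, so sets of different pathways that peak at a rank share the gene there.

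**Figure D4:**
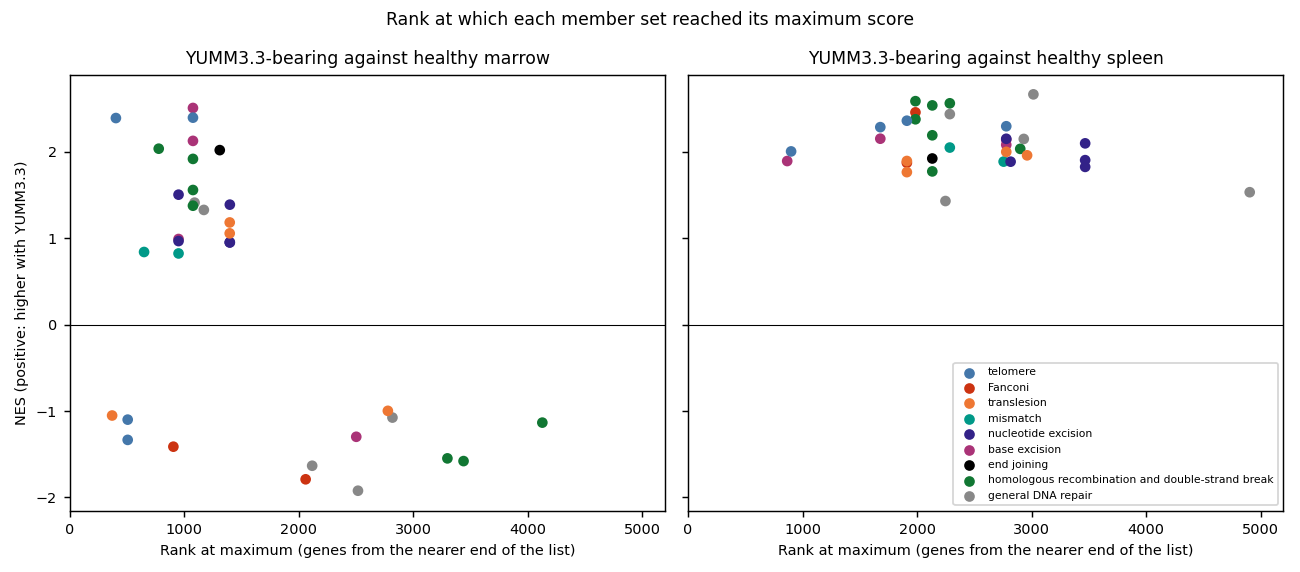
NES of each member set against the rank at which its score peaked, counted from the nearer end of the ranked list, in YUMM3.3-bearing against healthy marrow (left) and spleen (right), coloured by pathway group. In marrow the 21 positive sets all peak within the first 1398 ranks, 6 of them at rank 1076, while in spleen the 34 positive sets spread from rank 866 to 4905.

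Sets of neighbouring processes were taken by words in their names, and some sets stand in more than 1 list. Against healthy, 16.6% (B16F10) and 15.6% (YUMM3.3) of all listed sets were called higher in spleen, and 20.1% and 9.68% in marrow. Called lower were 1.6% and 5.31% in spleen, and 5% and 6.52% in marrow. DNA replication and S phase (13 sets) had 12 called higher with B16F10 and 13 with YUMM3.3 in spleen against healthy, with median NES of 2.06 and 2.42, each above that of the repair sets. In marrow they had 8 called higher and 0 lower with B16F10 (median 1.65), and 4 and 0 with YUMM3.3 (median 0.96, from -1.61 to 2.09). Mitosis (25 sets) had 17 and 20 called higher in spleen with medians of 2.05 and 2.20, and in marrow 18 with B16F10 (median 1.93) and 8 higher and 4 lower with YUMM3.3 (median 1.27). Repair and proliferation sets were thus higher together in spleen against healthy. Between the tumours in spleen, 12 of 13 replication sets (median 1.06) and 18 of 25 mitosis sets (median 0.93) lay above 0. Of these, 0 replication and 2 mitosis sets were called. There the repair sets had a median of -1.01 and all listed sets 1.04. How far shared genes or dividing cells account for the repair scores was not tested.

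Sets with DNA damage, checkpoint, ATM or ATR in the name (22 sets) had 10 called higher with B16F10 and 11 with YUMM3.3 in spleen, and 0 lower. The list is mixed: beside the pathways of the damage kinases ATM and ATR it holds responses to radiation or chemicals, damage bypass and recognition, mitotic spindle checkpoints and a set of signalling that does not pass through ATM. In the marrow of YUMM3.3-bearing mice it had 4 higher and 3 lower with a median of -1.12, and with B16F10 8 higher and 0 lower with a median of 1.26. Repair steps whose names lie outside the membership rule (8 sets, such as dual incision and resolution of abasic sites) had 5 called higher with YUMM3.3 and 2 with B16F10 in spleen, and 0 lower. Within the last list, resolution of abasic sites, the step after AP site formation, had an NES of -0.94 in YUMM3.3-bearing against healthy marrow and 2.17 in spleen in the authors' deposited tables, and was named here after its values were seen.

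**Figure D5:**
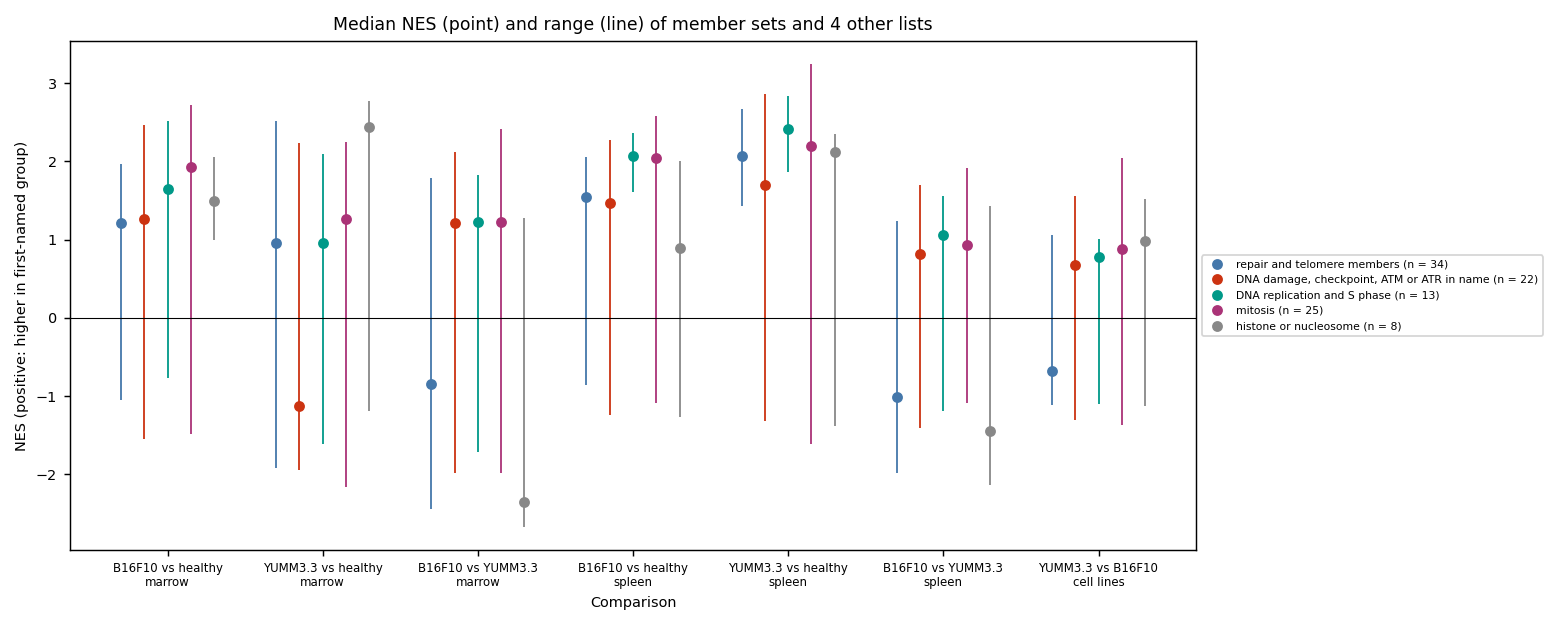
Median NES (points) and the range from lowest to highest (lines) of the 34 member sets and of 4 other lists in the 7 comparisons. In spleen against healthy the members (1.55 and 2.07) lie below DNA replication (2.06 and 2.42) and mitosis (2.05 and 2.20), while in YUMM3.3-bearing against healthy marrow the 8 histone or nucleosome sets, a list made after values were seen, have the highest median (2.44).

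Sets of other cell types were read by name in the same tables, among them T cells, which the depletion of CD3e targets, and NK cells, which share a list with them. In YUMM3.3-bearing against healthy spleen, B cell sets had 3 of 24 called higher and 1 lower (median 1.06), erythroid sets 3 of 12 higher and 1 lower (median 0.72), and T and NK cell sets 4 of 14 higher and 2 lower (median -0.99). Platelet sets there had 1 of 11 higher and 5 lower (median -1.66), and myeloid sets 1 of 26 higher and 3 lower (median -1.18). Of all listed sets in that comparison, 15.6% were called higher and 5.31% lower (median -0.69). In B16F10-bearing against healthy spleen the myeloid sets had 6 higher and 0 lower (median 1.27), the erythroid sets 3 and 0 (median 1.09), the B cell sets 2 and 3 (median -0.19), the T and NK sets 2 and 2 (median 1.34) and the platelet sets 1 and 0 (median 1.28). The shares over all sets there were 16.6% higher and 1.6% lower (median 1.09). The counts called higher and lower in YUMM3.3-bearing against healthy marrow were 3 and 3 for B cells, 1 and 3 for T and NK cells (median -1.24), 0 and 1 for erythroid, 2 and 1 for platelets and 0 and 1 for myeloid sets. Over all sets 9.68% were called higher and 6.52% lower there (median 0.74). The counts for B16F10-bearing against healthy marrow were 5 and 4 for B cells, 3 and 2 for T and NK cells, 1 and 0 for erythroid, 1 and 2 for platelets and 10 and 2 for myeloid sets (median 0.19). Here 20.1% of all sets were called higher and 5% lower (median 0.96). The part of such cells in the repair scores was not tested.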

How the data were processed

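Gene set enrichment results were read from 14 reports, 2 for each of 7 comparisons, with the sets of each direction in a report of their own. Each row deposited by the authors holds, per the file headers, the set's size, an enrichment score and its normalised score (NES), a nominal p-value, an FDR q-value and a family-wise p-value, the rank at maximum and the leading edge. The submitters' processing notes name FastQC 0.11.8, STAR 2.7.1a, featureCounts 1.6.0, DESeq2 1.22.2 and mm10; their roles and the permutation used are not given in the sources used here. Sign conventions differed between reports, so NES was signed by the group each report names. As a check, all 51 marrow and 35 spleen sets called opposite ways by the tumours against healthy and called between the tumours fell as read; a tissue turned as a whole would escape it, and the lines are not covered. Members were counted at FDR q below 0.05 beside all listed sets with Python 3.11.15 and pandas 2.3.3; no test was added. Reading and counting were tested on simulated data. Members, lists and tests were chosen with earlier results of these data known. Values in all comparisons are given for the KEGG set and the largest Reactome set of each group and for the general sets, and the highest and lowest member of each comparison is named, except that the values of 1 general set are not reported here although counts and medians include it; sets beyond this rule are said to be chosen after their values were seen, or given by 1 value or count. Among the alternatives were q below 0.01 and 0.25, nominal and family-wise p, curated sources, set size and telomere sets left out. Library depth is unknown here.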

Additional observations from a re-analysis of the deposited data

How the results depend on the processing

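Counts below are of member sets called higher or lower in the first-named group, for those that moved by more than 1.5 times. At FDR q below 0.01, B16F10 against healthy marrow had 3 higher, YUMM3.3 against healthy marrow 0 lower, B16F10 against YUMM3.3 marrow 0 higher and B16F10 against healthy spleen 8 higher. Of all listed sets, 11%, 2.21%, 3.12% and 10.4% were called in that order. At q below 0.25 the member counts became 17 higher, 13 higher and 8 lower, 7 higher and 27 higher, with 4 lower in B16F10 against YUMM3.3 spleen. Of all listed sets, 37.1%, 19.9% and 20.1%, 21.3%, 34.7% and 5.1% were called in that order. At a family-wise p below 0.05 the member counts were 0 higher, 4 higher and 0 lower, 0 higher and 3 lower, and 1 higher, with 17 higher in YUMM3.3 against healthy spleen and 0 lower in B16F10 against YUMM3.3 spleen. Of all listed sets, 4.82%, 3.24% and 0.901%, 1.21% and 2.16%, 5.25%, 6.85% and 0.386% were called in that order. At a nominal p below 0.05 the marrow comparisons had 13 higher, 12 higher and 5 lower, and 6 higher, and B16F10 against YUMM3.3 spleen 5 lower. Of all listed sets, 28.2%, 16.6% and 15.6%, 17.8% and 6.13% were called in that order. A further alternative, chosen after seeing the data, kept only the largest set of each of the 9 groups. Its marrow counts were 2 higher, 3 higher and 1 lower, and 1 higher and 3 lower. Its spleen counts were 4 and 9 higher against healthy and 0 lower between the tumours. Of all listed sets, 20.1%, 9.68% and 6.52%, 8.09% and 8.4%, 16.6%, 15.6% and 1.47% were called in that order. These counts are out of 9 sets, fewer than the full list of members. The shorter list alone lowers them, so the 1.5 times rule cannot show whether the calls changed. In YUMM3.3 against healthy spleen all 9 sets were called higher. Curated sources alone, sets of 25 to 200 genes, telomere sets left out and names ending in _DN counted kept all 14 counts within 1.5 times. The high share in YUMM3.3-bearing spleen thus held at every q threshold, while the calls lower with YUMM3.3 in marrow depended on it. So did the other counts given above for q below 0.01 or 0.25. Leaving out a library was not run, because no value per library was analysed. No paired analysis was possible because the reports carry no value per library. Depth and replicate spread are unknown here.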

Other observations

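Sets with histone or nucleosome in the name (8 sets, a list made after values were seen) stood beside the marrow split of the repair sets. With YUMM3.3 against healthy marrow 7 of 8 were called higher and 0 lower (median NES 2.44), with B16F10 against YUMM3.3 marrow 0 higher and 7 lower (median -2.35), and with B16F10 against healthy marrow 3 higher and 0 lower (median 1.49). Of all listed sets, 9.68% were called higher, 8.4% lower and 20.1% higher in that order. In spleen against healthy 6 were called higher with YUMM3.3 (median 2.12) and 1 with B16F10 (median 0.89), and 0 lower with either. Between the tumours in spleen 0 were called higher and 3 lower with B16F10 (median -1.45). The shares over all sets in spleen were 15.6% and 16.6% higher against healthy, and 1.47% lower between the tumours. Nucleosome assembly had an NES of 2.06, 2.44 and -2.21 in marrow and 2.00, 2.15 and 1.07 in spleen, in the order B16F10 against healthy, YUMM3.3 against healthy and B16F10 against YUMM3.3, in the authors' deposited tables. Which genes the repair sets share with these 8 sets was not analysed here.

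Replication sets also took both signs in YUMM3.3-bearing against healthy marrow, where 4 of 13 were called higher and 0 lower. In that comparison the authors' deposited table gives Reactome pre-initiation of DNA replication an NES of 2.03 (q 0.000939). DNA strand elongation had -1.18 there (q 0.361, not called), while in spleen both were high (2.41 and 2.55). Fischer's list of G1/S genes stood at -1.49 (q 0.113, not called) in that marrow comparison and at 2.83 in spleen in the authors' deposited tables. These 3 sets were named after their values were seen.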
